A study of Bos taurus with 6 samples.

Results

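The genes described here are 46 regulatory genes, from families that hold rapid response genes as well as others. They include Krüppel-like factors (KLF), early growth response factors (EGR) and their NAB corepressors, specificity proteins (SP) and immediate early response genes (IER). The remaining genes are the MYC and MAX network, BCL6, and the BTG and ZFP36 genes. The families were chosen with earlier results of these data known, and their members were then taken by gene symbol, as the probes whose only symbol in the platform annotation belongs to one of these families, and each gene has 1 probe. They are 46 of 24415 probes on the array, a probe being the summary of 1 transcript cluster. KLF3 is not among them, since its probe also carries a second symbol. With LY294002, EGR1, BCL6, KLF6, IER3, IER2 and KLF5 rose, 6 of the 46 genes (13%, against 2.58% of all probes), and ZFP36L2 fell, 1 of the 46 (2.17%, against 3.38% of all probes).

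KLF, SP and EGR proteins carry C2H2 zinc fingers that bind GC-rich promoter sequences. EGR and IER genes are classical immediate early genes, switched on within minutes of a growth factor or gonadotropin signal, largely through ERK and serum response factor, while MYC drives growth and ribosome production as a dimer with MAX. ZFP36 and BTG proteins act later, on RNA, by bringing deadenylases to transcripts. EGR1 is known in the follicle as a gene induced by the ovulatory LH surge.

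Bovine granulosa cells, the estradiol-producing cells around the oocyte, were aspirated from follicles of 2 to 6 mm, frozen, thawed and cultured in medium that held FSH at 20 ng/mL and the IGF1 analog R3 IGF1 at 50 ng/mL. On day 2 most of the spent medium was exchanged for medium free of FSH and IGF1, and the rest stayed. The new medium brought 50 μM LY294002, which blocks PI3K and thereby the activation of AKT, to one group and DMSO as vehicle to the other. After 2 h most of the medium of both groups was exchanged for medium with FSH and IGF1, and RNA was taken on day 4, so the arrays do not show the first hours of the response. There were 3 LY294002 and 3 DMSO arrays with 1 sample each; replicates are described as cells from ovaries of different days, but no label ties an array to a day, so p-values measure only the spread between these arrays.

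All values below are log2 signals as deposited, and log2FC is the log2 fold change, LY294002 minus DMSO. The words rose and fell are kept for genes where limma gave an adjusted p under 0.05 over all probes and the change was at least 1.4-fold (0.49 on the log2 scale). In both directions together, 7 of the 46 genes passed (15.2%), against 5.96% of all probes. All probes include dim ones and ones with no symbol, while the median signal of the 46 genes on an array was 6.01 to 6.27. In a fit of only the 18457 probes with 1 symbol, 1349 passed. Without the dimmest 25% of probes, 1480 of 18311 passed. At any fold change, 13 genes were higher and 2 lower at an adjusted p under 0.05 (28.3% and 4.35%), against 6.1% and 7.21% of all probes. The median log2FC was 0.10 over the 46 genes and 0.02 over all probes, and 31 of the 46 (67.4%) were above 0, against 53.2% of all probes. The median SD within a group was 0.07 for LY294002 and 0.10 for DMSO among these genes, and 0.10 and 0.11 among all probes. These counts describe the list and were not tested against other lists.

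The medians of the 6 arrays lay between 4.98 and 5.01. Of 10 granulosa cell markers, none was among the dimmest 25% of probes (mean signal under 3.17). Among these markers 4 fell, CYP19A1, FOXL2, AMH and AMHR2, and 1 rose, NR5A2. The summed linear signal of the granulosa cell markers was 6427 to 6699 in LY294002 and 6034 to 6443 in DMSO. Bright markers weigh most in this sum, so it does not stand for the list as a whole. The brightest was INHBA (mean signal 11.66 in LY294002 and 11.70 in DMSO), while NR5A2 had means of 10.30 and 9.26. The median log2FC of the 10 markers was -0.17. Before adjustment, limma gave p below 0.05 to 5 markers with less signal in LY294002 and to 3 with more. None of 9 leukocyte, 7 endothelial, 3 erythrocyte or 7 oocyte markers rose or fell with limma or with unmoderated variances. At an unadjusted p under 0.05, 1 leukocyte and 1 endothelial marker were lower, as were 3368 of all 24415 probes. The summed linear signal of the leukocyte markers was 195 to 219 in LY294002 and 192 to 227 in DMSO, and that of the endothelial markers was 113 to 123 in LY294002 and 120 to 129 in DMSO. Of 7 fibroblast and smooth muscle markers, PDGFRA rose and PDGFRB fell, and the sums were 6340 to 6644 in LY294002 and 6622 to 6827 in DMSO. At an unadjusted p under 0.05, 1 of these 7 was higher and 4 were lower (PDGFRB, DCN, MYH11 and COL1A1). Of 4 theca markers INSL3 fell, CYP17A1 was among the dimmest 25% of probes, and the sums were 4220 to 4262 in LY294002 and 4929 to 5016 in DMSO. At the same unadjusted cutoff, 3 of the 4 were lower (INSL3, LHCGR and HSD3B1) and 0 were higher. Nearly all of the theca sum is HSD3B1, a steroid dehydrogenase that granulosa cells also express, which had signals of 11.98 to 12.01 in LY294002 and 12.16 to 12.20 in DMSO (adjusted p = 0.0757). LUM was the brightest of the fibroblast markers. The part of these shifts in the results below was not tested, and in bulk RNA fewer expressing cells and less RNA per cell cannot be told apart.

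The largest change of the 46 was that of EGR1 (probe 12877406), a transcription factor of the early growth factor response. Its signals were 9.38, 9.42 and 9.38 in LY294002 and 8.25, 8.45 and 8.43 in DMSO. The LY294002 arrays lay close together and well above all DMSO arrays. EGR1 rose 2.02-fold, with log2FC 1.02 (SE 0.07, adjusted p = 0.000984).

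EGR2, a relative of EGR1 known from myelination and lymphocytes, had signals of 5.47, 5.58 and 5.32 in LY294002 and 5.13, 5.15 and 5.05 in DMSO. The groups did not overlap, and the log2FC of 0.35 (SE 0.08, adjusted p = 0.0421) stayed under 1.4-fold. EGR3 (0.34, 95% interval -0.01 to 0.68, adjusted p = 0.192) and EGR4 (0.16, interval -0.23 to 0.54, adjusted p = 0.604) had dim signals between 2.89 and 4.06, and their groups overlapped. Their intervals reach past 1.4-fold, so they leave a change of that size possible. The 4 EGR estimates were all above 0.

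NAB proteins bind EGR factors and repress their activity, and NAB2 is itself a known EGR target. NAB2 had signals of 6.27, 6.26 and 6.35 in LY294002 and 5.83, 5.93 and 5.89 in DMSO. All LY294002 values were above all DMSO values, but the change was 1.33-fold, with log2FC 0.41 (SE 0.06, adjusted p = 0.00944). NAB1 had a log2FC of 0.04 (interval -0.16 to 0.24, adjusted p = 0.821).

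IER3, a regulator of apoptosis and of ERK signaling, had signals of 9.03, 8.95 and 8.96 in LY294002 and 8.09, 8.18 and 8.33 in DMSO. It rose 1.72-fold, with log2FC 0.78 (SE 0.08, adjusted p = 0.00219). IER2, a nuclear protein of the same early response, had signals of 6.94, 6.87 and 6.87 in LY294002 and 6.34, 6.44 and 6.06 in DMSO. The groups were apart for both genes, and DMSO replicate 3 was the lowest for IER2. IER2 rose 1.53-fold (log2FC 0.61, SE 0.11, adjusted p = 0.0141), but its adjusted p was 0.0511 without LY294002 replicate 1, 0.0501 without LY294002 replicate 2, 0.0501 without LY294002 replicate 3, and 0.0534 without moderation of the variances. IER5 had a log2FC of 0.14 (interval -0.13 to 0.41, adjusted p = 0.5), and its groups overlapped.

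**Figure D1:**
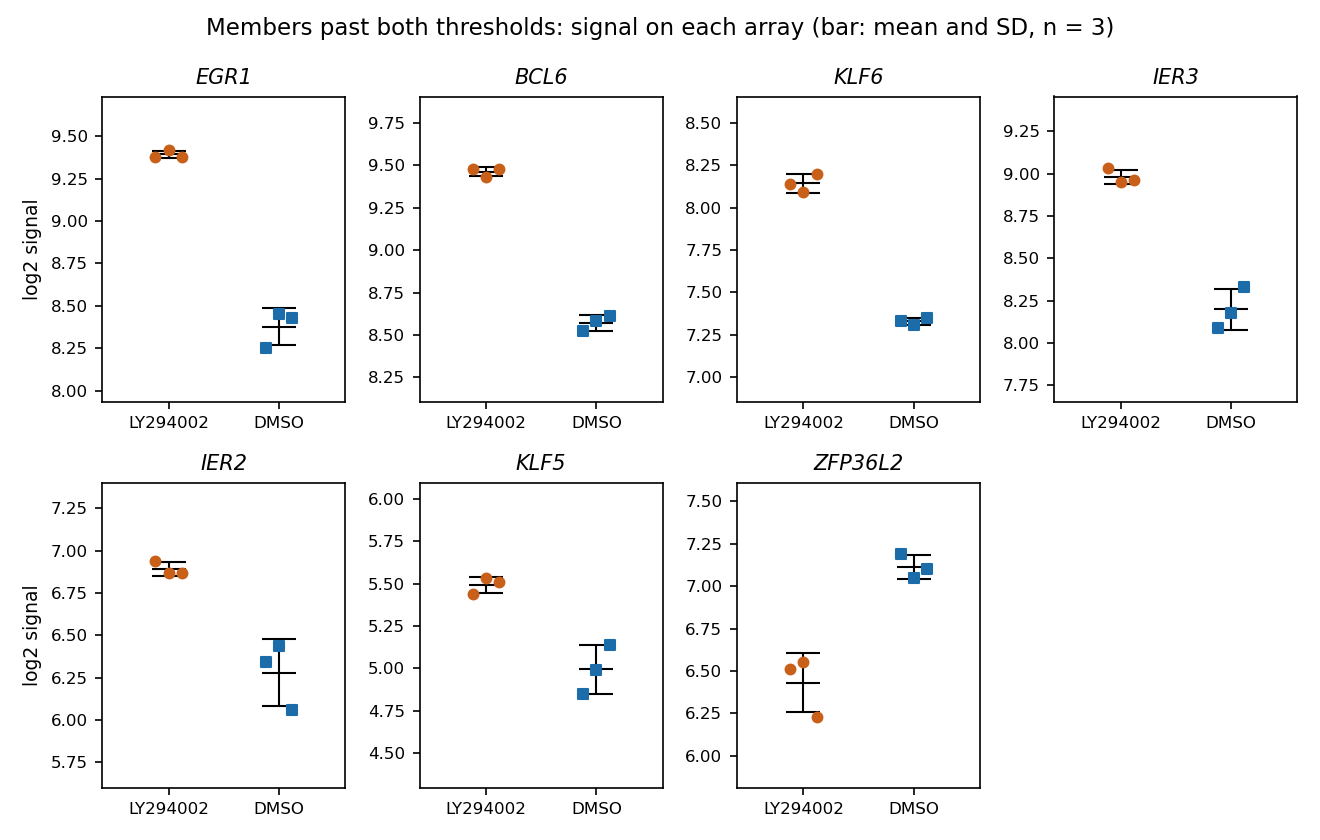
Log2 signal on each array (vertical axis, spanning the same range in each panel) of the 7 genes past both thresholds, with LY294002 arrays as circles and DMSO arrays as squares; bars give the mean and SD of 3 arrays. The groups do not overlap in any panel, which is also so for 32.7% of all probes. In LY294002, 6 genes are higher and ZFP36L2 is lower.

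Other genes of the same early response were measured alongside. Of 16 genes of serum response and AP-1 factors, 5 rose, 0 fell and 11 did not pass, with a median log2FC of 0.31. Those that rose were FOSL2 (0.99, adjusted p = 0.00096), JUND (0.64, adjusted p = 0.00306), JUNB (0.60, adjusted p = 0.0171) and ATF3 (0.57, adjusted p = 0.0174), all subunits of AP-1 or its relatives, and the orphan receptor NR4A1 (0.50, adjusted p = 0.0192). FOS had a log2FC of 0.47 (adjusted p = 0.0686), and SRF, the serum response factor itself, one of 0.05. Below 1.4-fold but at an adjusted p under 0.05, JUN (0.47, adjusted p = 0.00664) and CCN1 (0.33, adjusted p = 0.0174) were higher. FOSL1, also of this list, was lower (-0.32, adjusted p = 0.0251). With unmoderated variances, JUNB, ATF3 and NR4A1 no longer passed (adjusted p = 0.0608, 0.0592 and 0.0576). All 3 calls were also lost without LY294002 replicate 1 (0.0572, 0.0503 and 0.0631). The call of JUNB was lost too without DMSO replicate 2, LY294002 replicate 2 or LY294002 replicate 3 (0.0609, 0.0627 and 0.053), that of ATF3 without DMSO replicate 1 or 3 (0.0587 and 0.0599), and that of NR4A1 on leaving out replicates 1 and 2 of DMSO or replicate 2 of LY294002, each by itself (0.0545, 0.0598 and 0.0703).

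ERK induces its own inhibitors, the DUSP phosphatases and the Sprouty (SPRY) and SPRED adaptors. Of 13 such genes, 5 rose, 1 fell and 7 did not pass, with a median log2FC of 0.38. DUSP6, a phosphatase that inactivates ERK, rose the most (1.67, adjusted p = 0.00017), followed by SPRY4 (1.16, adjusted p = 0.00183) and SPRY2 (0.90, adjusted p = 0.00132). SPRY3 fell (-1.19, adjusted p = 0.00313). DUSP1, also an immediate early gene, had a log2FC of 0.10.

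Among 16 KLF genes, 2 rose, 0 fell and 14 did not pass, and the median log2FC was 0.06. KLF6 (probe 12714168), an activator known as a growth suppressor, had signals of 8.14, 8.09 and 8.20 in LY294002 and 7.33, 7.31 and 7.35 in DMSO. The arrays of each group lay close together and the groups were far apart. KLF6 rose 1.76-fold, with log2FC 0.81 (SE 0.06, adjusted p = 0.000987).

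KLF5, an activator of epithelial growth, had signals of 5.44, 5.53 and 5.51 in LY294002 and 4.85, 4.99 and 5.14 in DMSO. The groups were apart and the DMSO arrays were the more spread. KLF5 rose 1.41-fold (log2FC 0.50, SE 0.09, adjusted p = 0.0151), just past the fold threshold. Its call was lost without DMSO replicate 1, where the log2FC was 0.43, and without DMSO replicate 2, LY294002 replicate 2 or LY294002 replicate 3 (adjusted p = 0.0528, 0.0592 and 0.0572).

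KLF7, the closest relative of KLF6, lay just below that threshold. Its signals were 8.21, 8.07 and 8.02 in LY294002 and 7.75, 7.65 and 7.59 in DMSO, a 1.35-fold difference (log2FC 0.44, SE 0.08, adjusted p = 0.0169). The groups did not overlap. The other activating KLFs were KLF2 (0.12), KLF4 (-0.11) and KLF1 (-0.09), known from endothelium, stem cells and red cells, and the groups of each overlapped (adjusted p from 0.45 to 0.751). The interval of KLF4 ran from -0.51 to 0.30.

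KLF12 and KLF8 repress through the corepressor CtBP. KLF12 had signals of 8.35, 8.32 and 8.37 in LY294002 and 8.11, 7.99 and 7.90 in DMSO, apart but only 1.27-fold (log2FC 0.35, SE 0.07, adjusted p = 0.0274). KLF8 had a log2FC of 0.11 (adjusted p = 0.47). The 6 KLFs that bind the corepressor SIN3A, KLF9, KLF10, KLF11, KLF13, KLF14 and KLF16, had log2FCs between -0.25 and 0.13 with a median of -0.01, and none passed. KLF16 was the lowest of them (-0.25, adjusted p = 0.0896), with values of 7.69 to 7.73 in LY294002 and 7.87 to 8.11 in DMSO. KLF10, a gene known to respond to TGF beta, had values of 8.61 to 8.67 in LY294002 and 8.51 to 8.63 in DMSO, and its interval of -0.10 to 0.21 leaves out a 1.4-fold change. KLF15 (0.04) and KLF17 (0.02) did not pass either, and KLF17 was the 1 gene of the 46 among the dimmest 25% of probes.

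**Figure D2:**
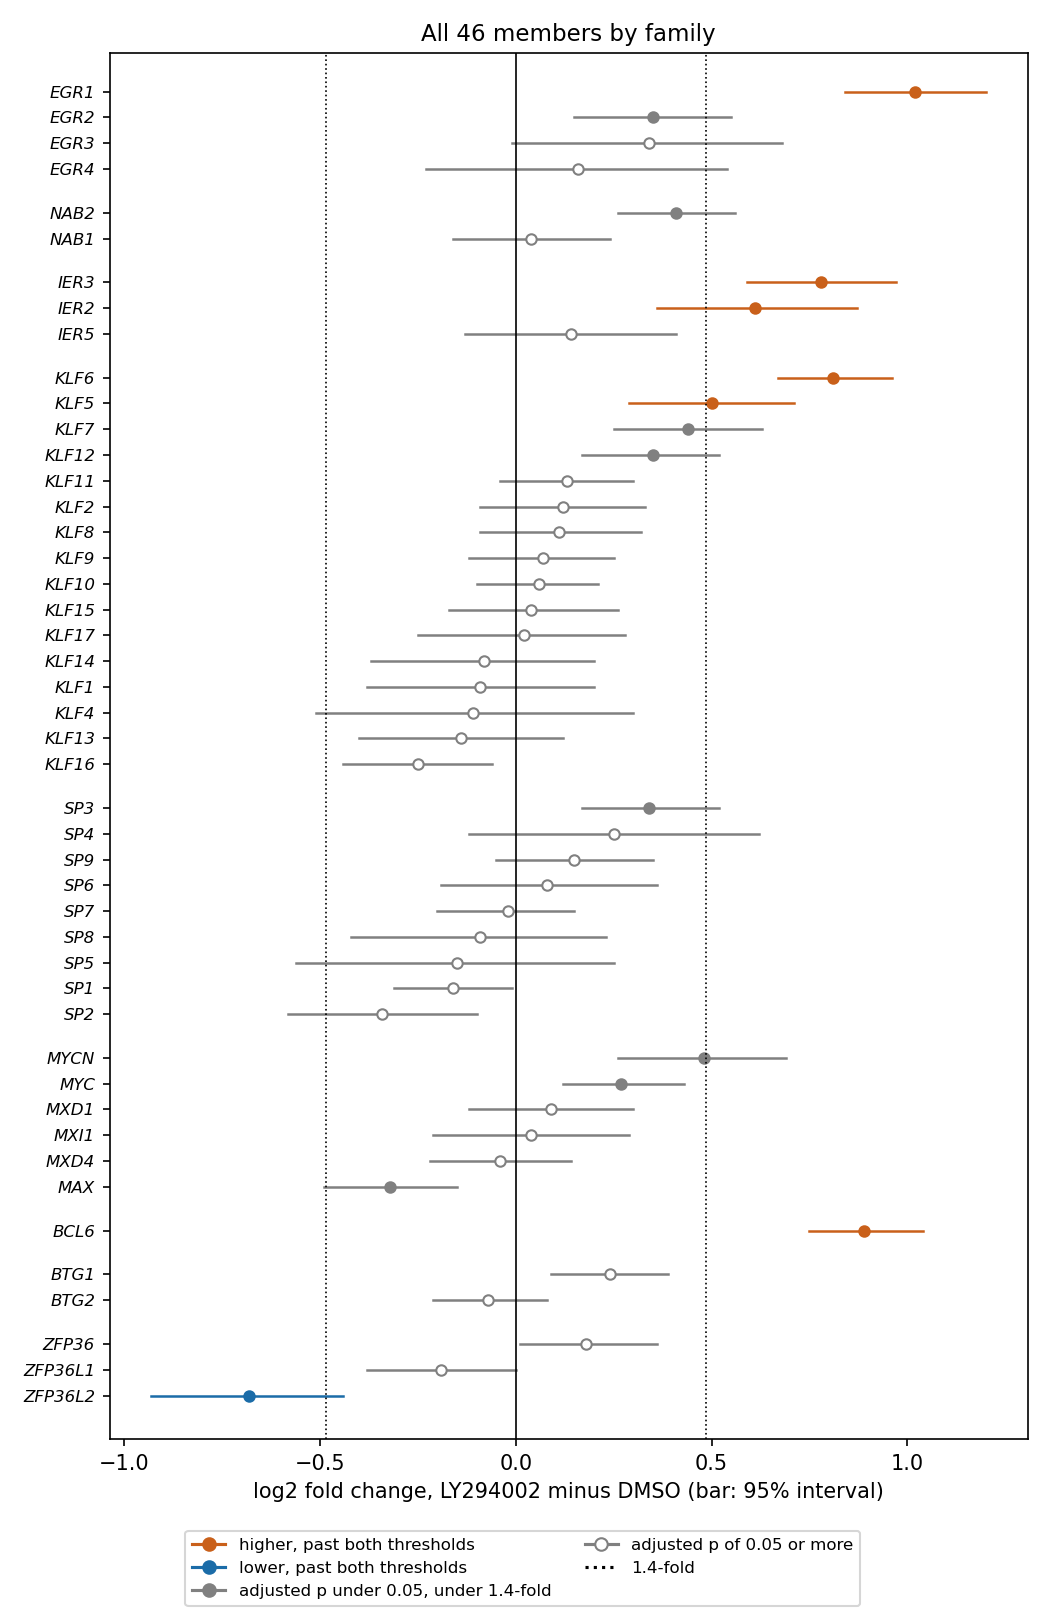
Log2FC of each of the 46 genes, LY294002 minus DMSO (horizontal axis, point), with its 95% interval (bar), grouped by family; dotted lines mark 1.4-fold. Filled coloured points passed both thresholds, filled grey points had an adjusted p under 0.05 below 1.4-fold, and open points had an adjusted p of 0.05 or more.

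None of the 9 SP genes rose or fell with limma or with unmoderated variances, and their median log2FC was -0.02. At an unadjusted p under 0.05, 1 was higher and 2 were lower, compared with 3334 higher and 3368 lower of all 24415 probes. SP3, a widely expressed factor that can activate or repress at GC boxes, had signals of 8.32, 8.37 and 8.47 in LY294002 and 8.13, 8.02 and 7.98 in DMSO. All LY294002 values were above all DMSO values, with a log2FC of 0.34 (SE 0.07, adjusted p = 0.0283), which is 1.27-fold. SP1, which competes with SP3 for the same sites, had values of 7.59 to 7.65 in LY294002 and 7.75 to 7.85 in DMSO. These groups did not overlap either, but the log2FC of -0.16 had an adjusted p of 0.154 (interval -0.31 to -0.01). SP2 had a log2FC of -0.34 (adjusted p = 0.0739), and SP4, SP5, SP6, SP7, SP8 and SP9 lay between -0.15 and 0.25 with overlapping groups.

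In the MYC and MAX network, 0 of 6 genes rose or fell, also with unmoderated variances. Below 1.4-fold, 2 were higher and 1 lower at an adjusted p under 0.05, as were 1795 of all 24415 probes in either direction. MYC had signals of 8.54, 8.55 and 8.59 in LY294002 and 8.34, 8.31 and 8.21 in DMSO, and the log2FC was 0.27 (SE 0.06, adjusted p = 0.0378). MYCN, its relative in the developing nervous system, had signals of 5.02, 4.90 and 5.05 in LY294002 and 4.48, 4.66 and 4.40 in DMSO. Its change of 1.39-fold (log2FC 0.48, SE 0.09, adjusted p = 0.0185) lay on the edge of the fold threshold and passed it without DMSO replicate 2 (0.55, adjusted p = 0.0218) or without LY294002 replicate 2 (0.52, adjusted p = 0.042).

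MAX, the partner that MYC needs to bind DNA, had signals of 8.46, 8.56 and 8.48 in LY294002 and 8.73, 8.85 and 8.89 in DMSO. All LY294002 values were below all DMSO values, with log2FC -0.32 (SE 0.07, adjusted p = 0.03), which is 1.25-fold. MXD1, MXI1 and MXD4, which compete with MYC for MAX, had log2FCs of 0.09, 0.04 and -0.04, and the intervals of all 3 lay between -0.22 and 0.30, within 1.4-fold. Without any 1 array, the adjusted p of MYC lay between 0.0638 and 0.118, so its value under 0.05 needed all 6 arrays.

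Of 10 other MYC network factors, 1 fell, MYCL, the remaining MYC paralog (-0.87, SE 0.08, adjusted p = 0.0016), and 0 rose. Of 19 classical MYC target genes, 5 fell, 0 rose and 14 did not pass, with a median log2FC of -0.29. SRM, an enzyme of spermidine synthesis, fell the most (-1.01, adjusted p = 0.000987), followed by the ribosome assembly genes MRTO4 (-0.69, adjusted p = 0.00158) and WDR12 (-0.69, adjusted p = 0.00319) and the cell cycle kinase gene CDK4 (-0.53, adjusted p = 0.00329). NME1 also fell (-0.49), and dropped under 1.4-fold with quantile normalization (-0.47) and when replicate 1 of DMSO (-0.47), replicate 3 of DMSO (-0.46) or replicate 2 of LY294002 (-0.46) was left out. ODC1, the enzyme before SRM in polyamine synthesis, had a log2FC of 0.44 (adjusted p = 0.00779), higher but under 1.4-fold.

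**Figure D3:**
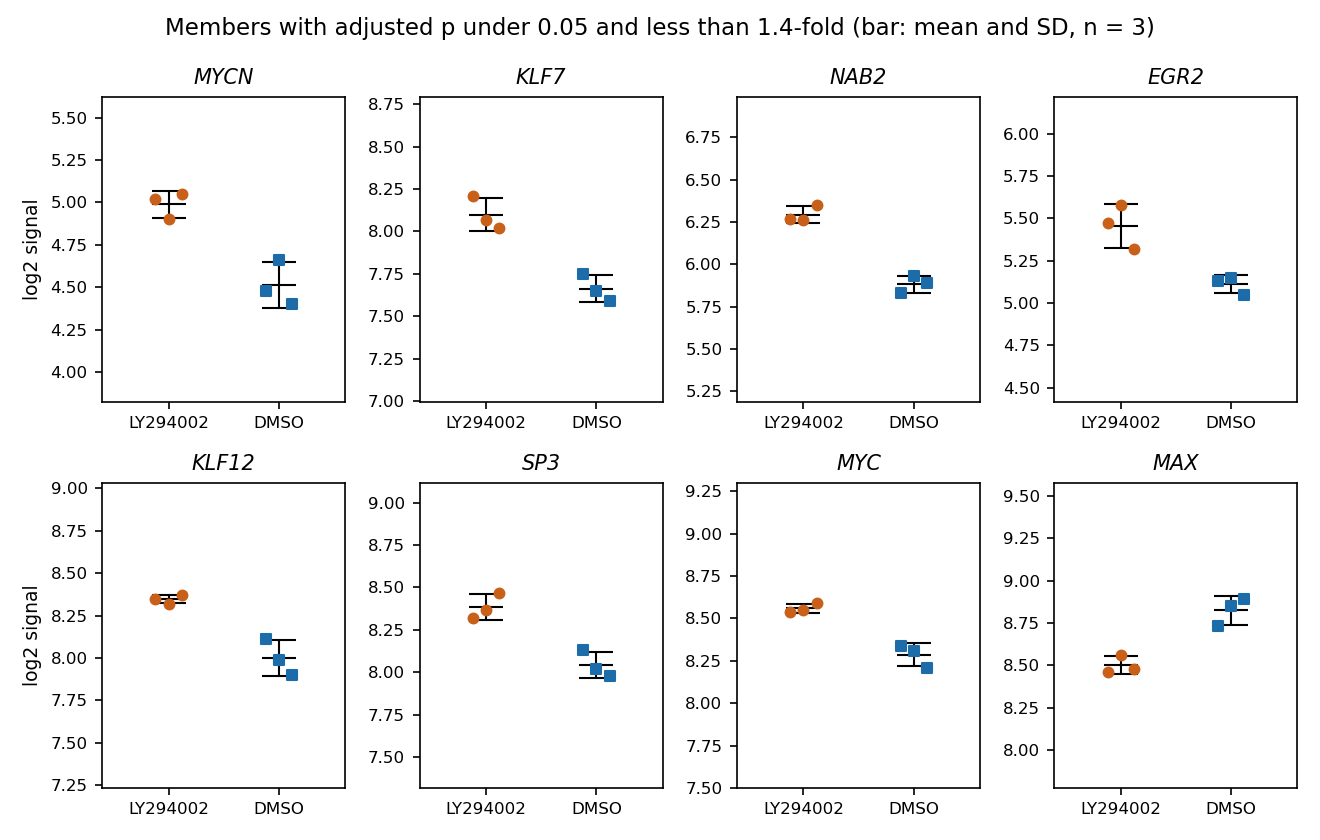
Log2 signal on each array (vertical axis, spanning the same range in each panel) of the 8 genes whose change stayed below 1.4-fold at an adjusted p under 0.05, with LY294002 arrays as circles and DMSO arrays as squares; bars give the mean and SD of 3 arrays. The groups do not overlap in any panel, which is also so for 32.7% of all probes. In LY294002, 7 genes are higher and MAX is lower.

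BCL6 (probe 12681831), a BTB zinc finger repressor best known from germinal center B cells and as a target of FOXO factors, had signals of 9.48, 9.43 and 9.48 in LY294002 and 8.52, 8.58 and 8.61 in DMSO. It rose 1.86-fold, with log2FC 0.89 (SE 0.06, adjusted p = 0.000784), the second largest of the 46 and the one with the lowest adjusted p. Of 9 measured corepressors and relatives of BCL6, 0 rose and 0 fell with limma or with unmoderated variances, while HDAC3 had an unadjusted p of 0.0138 (log2FC 0.22) and the next lowest unadjusted p was 0.0598, for BCOR. FOXO factors are held out of the nucleus by AKT. Of 22 other FOXO target genes, 3 rose, 3 fell and 16 did not pass, with a median of -0.01. SOD2, the mitochondrial superoxide dismutase (0.65, adjusted p = 0.00242), KLHL24 (0.57, adjusted p = 0.00447) and the proapoptotic gene BCL2L11 (0.55, adjusted p = 0.0373) rose, while SESN3 (-0.59, adjusted p = 0.00844), SESN2 (-0.53, adjusted p = 0.012) and FBXO32 (-0.49, adjusted p = 0.0196) fell. With unmoderated variances, BCL2L11 and FBXO32 no longer passed (adjusted p = 0.11 and 0.0569). FBXO32 also dropped under 1.4-fold with quantile normalization (-0.47) and with array weights (-0.47). Leaving out 1 array also ended the call of BCL2L11 in 4 of 6 cases (adjusted p from 0.0938 to 0.111, for replicates 2 and 3 of DMSO and replicates 1 and 2 of LY294002) and that of FBXO32 in 4 (0.0579 to 0.0715, for replicates 1 and 2 of DMSO and replicates 1 and 3 of LY294002). SESN2 was lost without LY294002 replicate 2, where its log2FC was -0.48, and without LY294002 replicate 3 (adjusted p = 0.0501).

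Of the 5 ZFP36 and BTG genes, which act on transcripts, 1 fell and 0 rose. ZFP36L2 (probe 12708387), a CCCH zinc finger protein that binds AU-rich elements and is needed for female fertility in mice, had signals of 6.51, 6.55 and 6.23 in LY294002 and 7.19, 7.05 and 7.10 in DMSO. All LY294002 values were below all DMSO values, and LY294002 replicate 3 was the lowest. ZFP36L2 fell 1.61-fold, with log2FC -0.68 (SE 0.10, adjusted p = 0.00808), and lay between -0.74 and -0.58 on leaving out any 1 array.

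Its relatives did not pass. ZFP36, also called tristetraprolin and itself an immediate early gene, had values of 6.23 to 6.36 in LY294002 and 6.06 to 6.22 in DMSO (log2FC 0.18, adjusted p = 0.168). ZFP36L1 had values of 8.45 to 8.63 in LY294002 and 8.68 to 8.82 in DMSO (log2FC -0.19, adjusted p = 0.182). The groups of both were just apart, as they were for 32.7% of all probes and for 23 of the 46 genes. Of 17 AU-rich transcripts known to be bound by the family, 2 rose, the kinase gene PIM1 (0.76, adjusted p = 0.00194) and the cyclin gene CCND1 (0.66, adjusted p = 0.00456), and 0 fell. The median was 0.10, and 6 of the 17 were among the dimmest 25% of probes.

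BTG1 and BTG2 are antiproliferative genes whose products recruit the CCR4-NOT deadenylase. BTG1 had values of 9.49 to 9.55 in LY294002 and 9.23 to 9.36 in DMSO, and its log2FC of 0.24 had an adjusted p of 0.0569, the lowest of the 31 genes above 0.05. BTG2 had a log2FC of -0.07 (interval -0.21 to 0.08, adjusted p = 0.548). None of 4 other BTG and TOB genes and none of 10 CCR4-NOT subunits rose or fell with limma or with unmoderated variances. At an unadjusted p under 0.05, 3 CCR4-NOT genes were higher and 3 lower, with 0 among the BTG and TOB genes. Over all 24415 probes, 3334 were higher and 3368 lower at this cutoff.

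**Figure D4:**
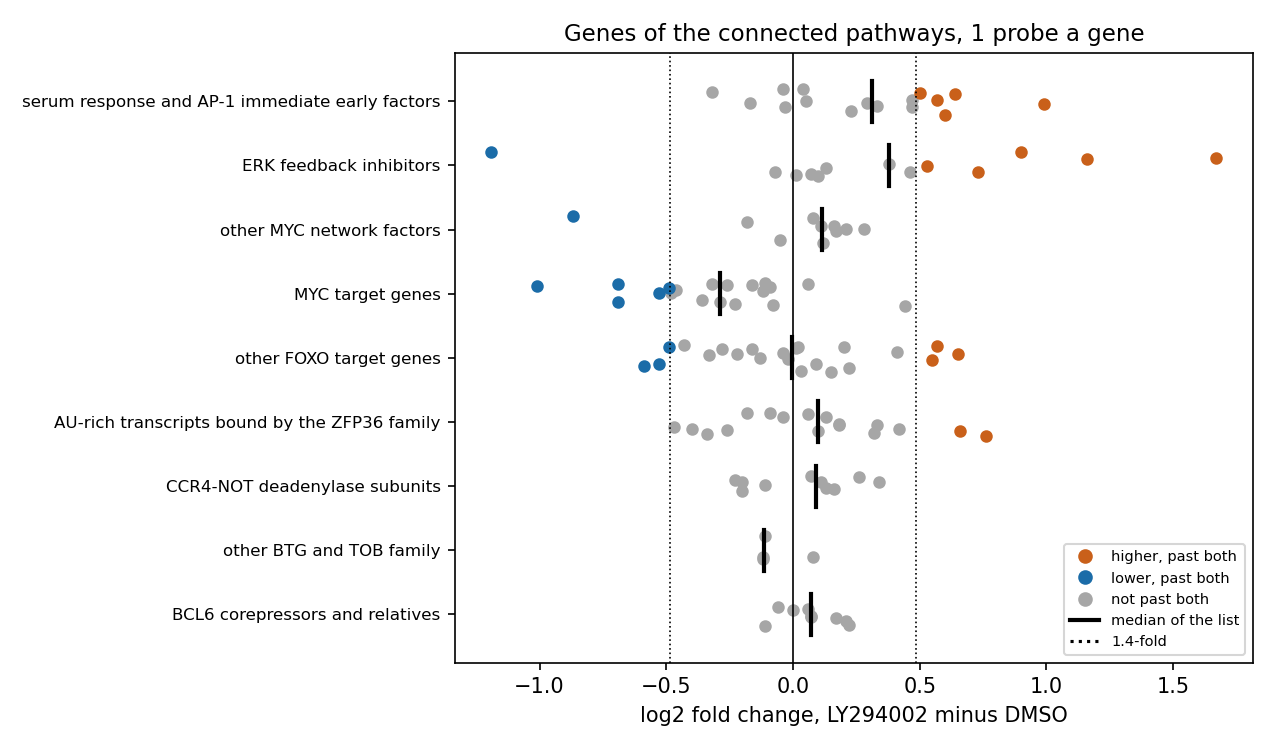
Log2FC, LY294002 minus DMSO (horizontal axis), of each gene in 9 lists of connected genes, with 1 point a gene, the median of each list as a black bar and 1.4-fold as dotted lines. The immediate early and ERK feedback lists have medians of 0.31 and 0.38, and the MYC target genes have a median of -0.29.

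Of the 31 genes with an adjusted p of 0.05 or more, 6 had a 95% interval that reached past 1.4-fold in at least 1 direction and leaves a change of that size possible. The intervals of 26 of the 46 genes lay wholly within 1.4-fold (56.5%, against 66.1% of all probes). Across the arrays left out in turn, EGR1, BCL6, KLF6, IER3 and ZFP36L2 passed both thresholds each time, IER2 in 3 of 6 cases and KLF5 in 2 of 6. Of the 8 genes below 1.4-fold, NAB2 alone kept an adjusted p under 0.05 in all 6 cases (0.0296 to 0.0414).

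**Figure D5:**
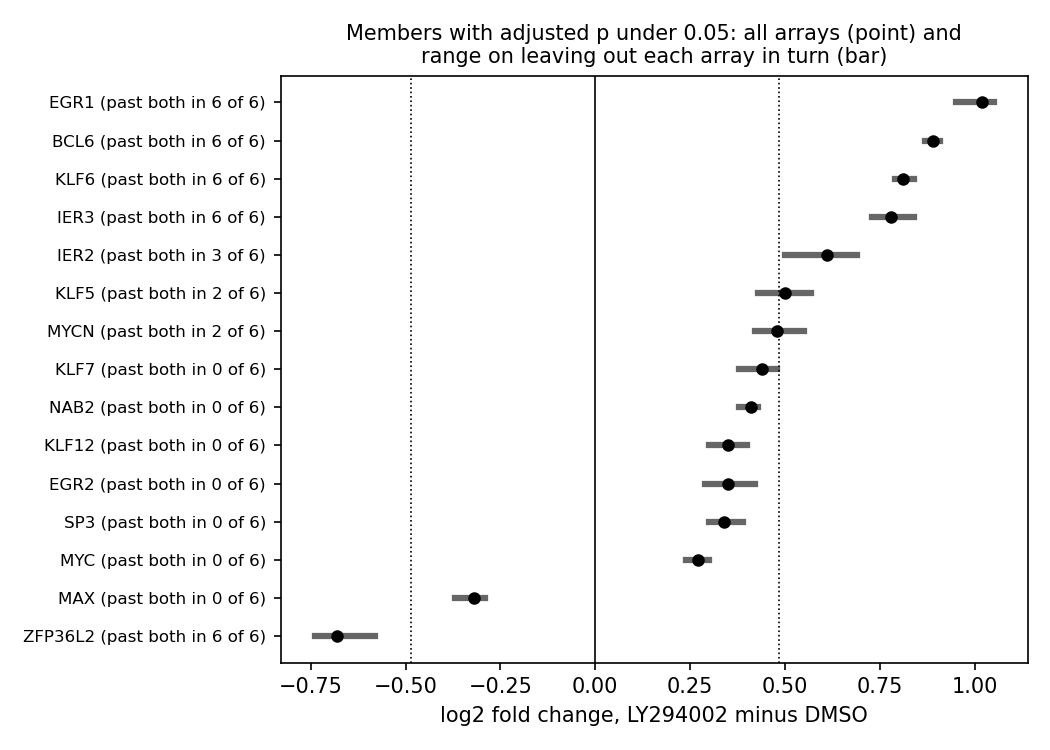
Log2FC, LY294002 minus DMSO (horizontal axis), of the 15 genes with an adjusted p under 0.05, on all 6 arrays (point) and as the range on leaving out each array in turn (bar); dotted lines mark 1.4-fold. EGR1 stayed between 0.95 and 1.05 and BCL6 between 0.87 and 0.91, while the bars of KLF5 and MYCN cross the fold threshold.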

How the data were processed

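Per the labels, total RNA of LY294002 and DMSO treated granulosa cells was used. It was amplified and labeled, and the product was hybridized to Bovine Gene 1.0 ST arrays. The authors processed the arrays with RMA, which corrects the background, normalizes between arrays and summarizes each transcript cluster. The deposited values are log2 signals, used as they are, for 24415 probes on 6 arrays. The RMA version and the genome build are not given in the sources used here. Probes were named from the platform table: 18457 have 1 symbol, 688 several and 5270 none. The gene IDs of all 46 genes matched RefSeq. The moderated linear model of limma 3.58.1 (R 4.3.3) was fitted to all probes with treatment as the only term, followed by Benjamini-Hochberg adjustment across the whole array. The thresholds are those of the study's methods. Intervals are 95% intervals from the moderated variances. The genes described and the lists of connected genes, for which the brightest probe of a gene was used, were chosen with earlier results of these data known. Every gene past both thresholds was given with all its values, other genes by family, and of each connected list up to 4 genes that passed, by adjusted p. Genes named beyond these (NR4A1, FOS, JUN, CCN1, FOSL1, SRF, DUSP1, NME1, ODC1, BCL2L11, FBXO32, HDAC3 and BCOR) were chosen after their values were seen. The cell type markers given by name were also chosen after their values were seen. Alternatives were no moderation of the variances, an intensity trend, the replicate number as a block, median centring, quantile normalization, filters on dim or unnamed probes, weighted arrays, thresholds of other stringency, and the removal of each array in turn. Whether a probe also binds transcripts of related genes was not tested. The number of arrays limits the precision.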

Additional observations from a re-analysis of the deposited data

How the results depend on the processing

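With no fold threshold, 13 of the 46 genes were higher and 2 lower (15 in all), and 41 genes of the connected lists passed, compared with 25 under the thresholds used. With a 2-fold threshold, 1 gene (EGR1) was higher and 0 lower, 1 in all, and 4 connected genes passed. At an adjusted p under 0.01, 4 were higher and 1 lower. With an intensity trend, centred arrays, quantile normalization, array weights, or without the dimmest or unnamed probes, the 7 calls were kept and no other gene of the 46 was called. Without moderation of the variances IER2 was lost, and 5 were higher. Of the genes below 1.4-fold, EGR2 and MYCN then had an adjusted p of 0.0823 and 0.0526, and SP3 lay at 0.05. Leaving out 1 array gave 4 to 6 genes that were higher and 1 that was lower. The replicate number was not taken as a pairing, since no label ties arrays of the same number together. The deviations of such arrays had correlations of -0.04, -0.02 and -0.03 across probes, and those of arrays with different numbers -0.01 to 0.04. Values near 0 over all probes do not show that the arrays were unpaired. With the replicate block, 6 were higher and 1 lower, and 1252 of all probes were called, compared with 1454. Of the genes below 1.4-fold, KLF7 and NAB2 kept an adjusted p under 0.05 with the block (0.0384 and 0.0492). EGR2, KLF12, MAX, MYC, MYCN and SP3 did not (0.0707, 0.0824, 0.0793, 0.118, 0.0741 and 0.0992). In the connected lists 20 genes passed with the block, and JUNB, ATF3, NR4A1, FBXO32 and BCL2L11 no longer did (adjusted p = 0.0569, 0.0606, 0.0758, 0.0564 and 0.0742). The only sign changes were in genes with log2 fold changes near 0 that did not pass. KLF17 was at -0.01 with quantile normalization. On leaving out 1 array the ranges were -0.05 to 0.13 for KLF17, -0.19 to 0.02 for KLF14, -0.03 to 0.10 for KLF15, -0.27 to 0.05 for KLF4, -0.08 to 0.02 for MXD4, -0.06 to 0.12 for MXI1, -0.04 to 0.08 for NAB1, -0.31 to 0.04 for SP5, -0.06 to 0.02 for SP7 and -0.21 to 0.03 for SP8. The cause of these shifts was not tested. The promoter and protein comparisons planned for these genes were not run.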

Other observations

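Within an array, the log2 ratio of 2 related probes is free of a shift that all probes of the array share. Effects that depend on the height of the signal stay in it, and EGR2 and IER5 were dimmer than EGR1 and IER3. The 6 pairs given here were chosen after their values were seen, so they are a description without a test. The ratio of EGR1 to EGR2 was 3.84 to 4.06 in LY294002 and 3.12 to 3.38 in DMSO, 0.67 higher on average in LY294002. The ratio of KLF6 to KLF10 was -0.53 to -0.46 in LY294002 and -1.32 to -1.18 in DMSO (difference 0.76), that of IER3 to IER5 was 3.53 to 3.66 in LY294002 and 2.63 to 3.17 in DMSO (0.64), and that of NAB2 to NAB1 was -1.23 to -1.06 in LY294002 and -1.65 to -1.35 in DMSO (0.37).

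The ratio of MYC to MAX, whose products bind DNA as a pair, was -0.01 to 0.11 in LY294002 and -0.68 to -0.39 in DMSO, a difference of 0.60. Neither gene passed the fold threshold alone. The ratio of ZFP36L2 to ZFP36 was -0.13 to 0.32 in LY294002 and 0.88 to 1.13 in DMSO, a difference of -0.87.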
